A study of Mus musculus with 4 samples.

Results

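Peroxiredoxins, thioredoxin, thioredoxin reductase, glutathione peroxidase 4 and superoxide dismutase 1 form the front line against peroxides and superoxide in the cell. The 8 genes described here are Prdx1, Prdx2, Prdx4, Prdx6, Txn1, Txnrd1, Gpx4 and Sod1, taken by symbol from the 13831 gene symbols of the deposited table. Sod1 turns superoxide into hydrogen peroxide, and peroxiredoxins remove that peroxide through a reactive cysteine. In the typical peroxiredoxins the oxidised cysteine is then reduced by thioredoxin, which is itself reduced by thioredoxin reductase with electrons from NADPH. Gpx4 uses glutathione to reduce lipid peroxides in membranes and so protects cells from ferroptosis. Gpx4 and Txnrd1 are selenoproteins, in which selenocysteine takes the place of the catalytic cysteine.

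The cells were J1 mouse embryonic stem cells, with 2 wild-type (WT) libraries and 2 libraries from a knockout (KO) of Mov10, an RNA helicase. All were grown untreated in medium with fetal calf serum, LIF and beta-mercaptoethanol, a thiol reductant. Whether the KO libraries came from 1 clone, and whether libraries of a group came from separate cultures, is not given in the sources used here. The p-values therefore measure only the spread between these libraries. Native polyadenylated RNA was read on a nanopore, so that each read is 1 molecule with its own estimated tail length in nucleotides (nt). The study set out to compare tail lengths between the genotypes.

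The libraries held from 351133 (WT 2) to 683239 (KO 1) reads with a tail length above 0, with library median tails of 97.3 nt (WT 1), 105.6 nt (WT 2), 105.8 nt (KO 1) and 98.1 nt (KO 2). Mov10 itself had 26 reads (WT 1), 14 (WT 2), 0 (KO 1) and 1 (KO 2). The 0 in KO 1 allows up to 4.39 reads per 1000000 reads (RPM). All 10 stem cell markers examined had reads in every library, and their summed level was 9851 RPM (WT 1) and 9916 RPM (WT 2) against 8458 RPM (KO 1) and 7009 RPM (KO 2). Of 9 fibroblast markers 8 had no reads, and the summed level of the whole list was between 5.70 and 14.0 RPM. The lists for primitive endoderm (6 genes), mesoderm and neuroectoderm (6 genes) and trophectoderm (4 genes) were between 6.83 and 57.0 RPM in sum, with no reads for Sox17, Dab2, T, Sox1, Cdx2 or Elf5. The part of the lower summed stem cell marker level of the KO libraries in the values below was not tested. That sum need not hold for each of the 10 markers. In bulk RNA, fewer cells that express a gene and less RNA per cell cannot be told apart.

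Several genes of this network are textbook targets of the transcription factor Nrf2, which binds the antioxidant response element. The core of that element, TGACNNNGC, was searched on both strands in RefSeq promoter windows of GRCm38.p6, which run from 250 bases before a start site through the first 50 bases of the transcript. The table held 12 windows for 7 of the 8 genes and none for Prdx6. One window each of Prdx1, Txnrd1 and Sod1 held a match, 3 of the 12 windows, where 12.4% of all 32851 windows held one. These 3 stretches are shown because they are the ones among the members' windows that hold the element. Each is written 5′ to 3′ on the gene's strand, with the match in capitals; all 3 matches read TGACNNNGC on the opposite strand. The match begins at -133 from the start site in Prdx1, at -92 in 1 of the 3 windows of Txnrd1, and at -56 in Sod1, counting the start site as 0. A match describes these letters only, since no binding was measured here.
Prdx1, chr4:116685436-116685504, + strand: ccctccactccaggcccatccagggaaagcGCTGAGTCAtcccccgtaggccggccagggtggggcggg
Txnrd1, chr10:82859084-82859152, + strand: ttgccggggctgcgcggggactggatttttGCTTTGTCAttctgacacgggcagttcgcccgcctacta
Sod1, chr16:90220676-90220744, + strand: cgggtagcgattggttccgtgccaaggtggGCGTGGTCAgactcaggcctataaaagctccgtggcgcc

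The members spanned a wide range of abundance. Sod1 (ENSMUSG00000022982.10) and Prdx1 (ENSMUSG00000028691.12) were the 2 most abundant, with means over the 4 libraries of 2436 and 2288 RPM, and Txnrd1 (ENSMUSG00000020250.10) was the least abundant, with 97.6 RPM. Each read is 1 molecule, so these levels were not divided by transcript length. Together the 8 genes took 0.664% of reads (95% Wilson interval 0.640 to 0.688%) for WT 1, 0.710% (0.683 to 0.739%) for WT 2, 0.783% (0.762 to 0.804%) for KO 1 and 0.726% (0.701 to 0.752%) for KO 2. Both KO libraries lay above both WT libraries in this share of total reads. The scaling used for the test of read number below set WT 1 at 0.9025 and KO 2 at 1.054 times their total reads. With those scaled sizes KO 2 would not lie above the WT libraries. Scaling by total reads also gave a median log2 change of 0.11 over all genes tested. The WT mean was 0.687% ± 0.0328 (SD, n = 2) and the KO mean 0.754% ± 0.0405 (SD, n = 2), and the two-sided p of an exact permutation test was 0.333, the smallest that 2 libraries against 2 allow. All intervals over reads cover counting error only.

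**Figure D1:**
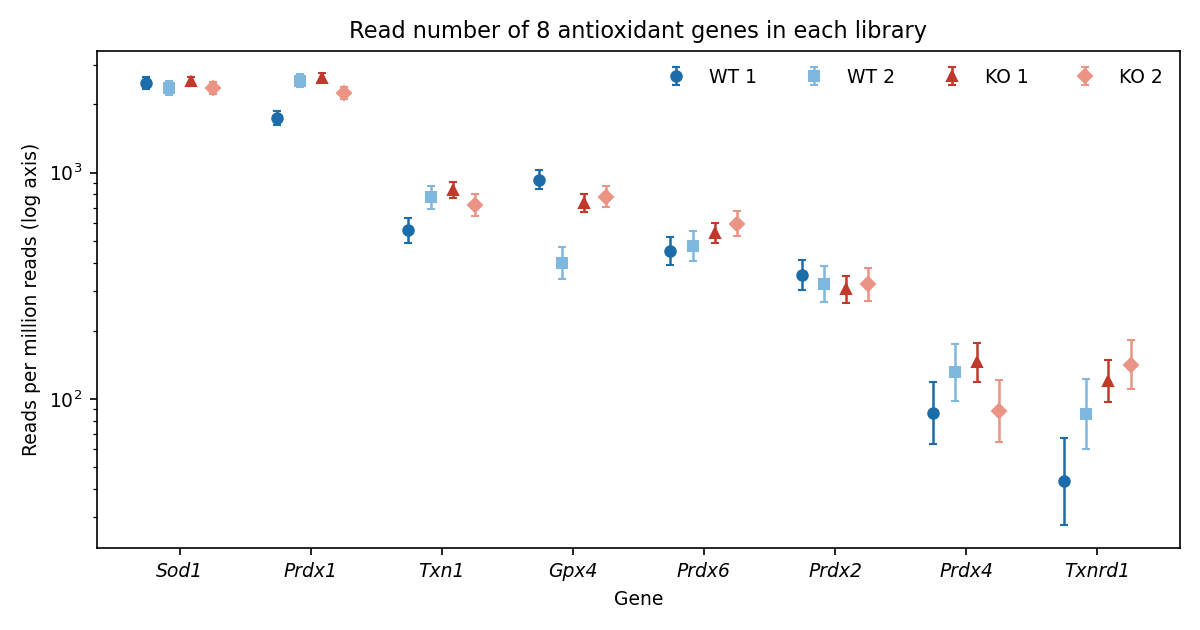
Read number of each gene, in RPM on a log axis, in the 4 libraries (points) with 95% Wilson intervals of counting error (bars). Per total reads, Sod1 is nearly level across libraries, Gpx4 is 931 RPM (WT 1) and 399 RPM (WT 2), and Txnrd1 runs from 43.2 RPM (WT 1) to 142 RPM (KO 2).

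In the order of mean read number, Sod1 and Prdx1 were followed by Txn1, Gpx4, Prdx6, Prdx2, Prdx4 and Txnrd1. Prdx1 was above Txn1 in every library by 1183 to 1778 RPM, and Prdx6 was above Prdx2 and Prdx2 above Prdx4 without overlap of their ranges. The remaining neighbours were not separated by their spread: Sod1 exceeded Prdx1 in 2 of 4 libraries, Txn1 exceeded Gpx4 in 2, Gpx4 exceeded Prdx6 in 3 and Prdx4 exceeded Txnrd1 in 3.

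Sod1, the copper and zinc superoxide dismutase of the cytosol, had the steadiest level per total reads, though not with the scaled sizes. It had 2482 RPM (WT 1), 2367 (WT 2), 2529 (KO 1) and 2365 (KO 2). The groups overlapped fully. Prdx1, an abundant peroxiredoxin of cytosol and nucleus, had 1738 RPM (95% Wilson interval 1619 to 1866) for WT 1, 2546 (WT 2), 2618 (KO 1) and 2249 (KO 2). Per total reads only WT 1 stood apart, since its interval ended below the 2112 RPM at which that of KO 2, the next lowest library, began. With the scaled sizes of the read number test the intervals of WT 1 and KO 2 overlap. Txn1, the cytosolic thioredoxin that reduces Prdx1 and Prdx2, followed the same order of libraries, with 555 RPM (WT 1), 777 (WT 2), 840 (KO 1) and 716 (KO 2). Its 95% interval in WT 1, 490 to 629 RPM, ended below the lower bound of 641 RPM (KO 2). This too holds per total reads and not with the scaled sizes.

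Prdx2, a cytosolic relative of Prdx1 (ENSMUSG00000005161.15), had 353 RPM (WT 1), 322 (WT 2), 304 (KO 1) and 321 (KO 2). The groups did not overlap, but the gap between WT 2 and KO 2 was under 1 RPM on this scale. Prdx6 (ENSMUSG00000026701.15), the 1-cysteine member of the family, which takes electrons from glutathione and not from thioredoxin, had 450 RPM (WT 1), 476 (WT 2), 540 (KO 1) and 595 (KO 2). Both KO libraries were above both WT libraries. Prdx4 (ENSMUSG00000025289.15), the peroxiredoxin of the endoplasmic reticulum, had 86.5 RPM (WT 1), 131 (WT 2), 145 (KO 1) and 88.4 (KO 2). Here 1 library of each genotype was high and 1 was low.

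Txnrd1, the cytosolic thioredoxin reductase, showed the largest difference between genotypes of the 8 genes as a ratio of read numbers (log2 scale), though not in RPM. It had 19 reads (WT 1), 30 (WT 2), 82 (KO 1) and 61 (KO 2), which is 43.2, 85.4, 120 and 142 RPM. Both KO libraries were above both WT libraries, although the 95% Wilson intervals of WT 2 (59.9 to 122 RPM) and KO 1 (96.7 to 149 RPM) overlapped. The WT mean was 64.3 RPM ± 29.8 (SD, n = 2) and the KO mean was 131 RPM ± 15.4 (SD, n = 2).

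Across the genome no gene passed the test of read number, and none of the 8 members did. The number of reads per gene was tested with limma's voom over the 4815 genes that averaged at least 10 reads, with Benjamini-Hochberg adjustment over all of them. Calls at an adjusted p under 0.05 numbered 0 of 8 members and 0.0% of all genes tested, while 498 genes, 10.3%, had an unadjusted p under 0.05; limma's trend test on log2(RPM + 1) also made 0 calls. Single choices moved the count: there were 50 calls without WT 1, 367 without WT 2, 7 with scaling by total reads and 96 with no filter on read number. Txnrd1 was the 1 member with an unadjusted p under 0.05, at 0.0110. Its log2 change was 0.97 with a standard error of 0.34 (95% interval 0.25 to 1.69; adjusted p = 0.318, limma). Without WT 2 it was 1.35 with an adjusted p of 0.0194, and over all alternatives run the adjusted p ranged from 0.0194 to 0.998. The scaled levels of WT and KO did not overlap in 3 of the 8 members, Prdx6 and Txnrd1 (higher in KO) and Prdx2 (lower), a share near the 40.5% of all genes tested.

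The other members had small log2 changes in read number with wide intervals: 0.10 for Prdx1 (-0.35 to 0.55), -0.22 for Prdx2 (-0.76 to 0.31), 0.01 for Prdx4 (-0.68 to 0.70) and 0.18 for Prdx6 (-0.32 to 0.68). Txn1 had 0.13 (-0.37 to 0.64), Gpx4 0.19 (-0.49 to 0.87) and Sod1 -0.10 (-0.53 to 0.33). The intervals leave room for differences of either sign in each of these 7 genes. The median of the 8 changes was 0.12, against -0.01 over all genes tested. When libraries were scaled by their total reads instead, the members' median was 0.25 and that of all genes 0.11. Sod1 then had a positive value, 0.02.

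**Figure D2:**
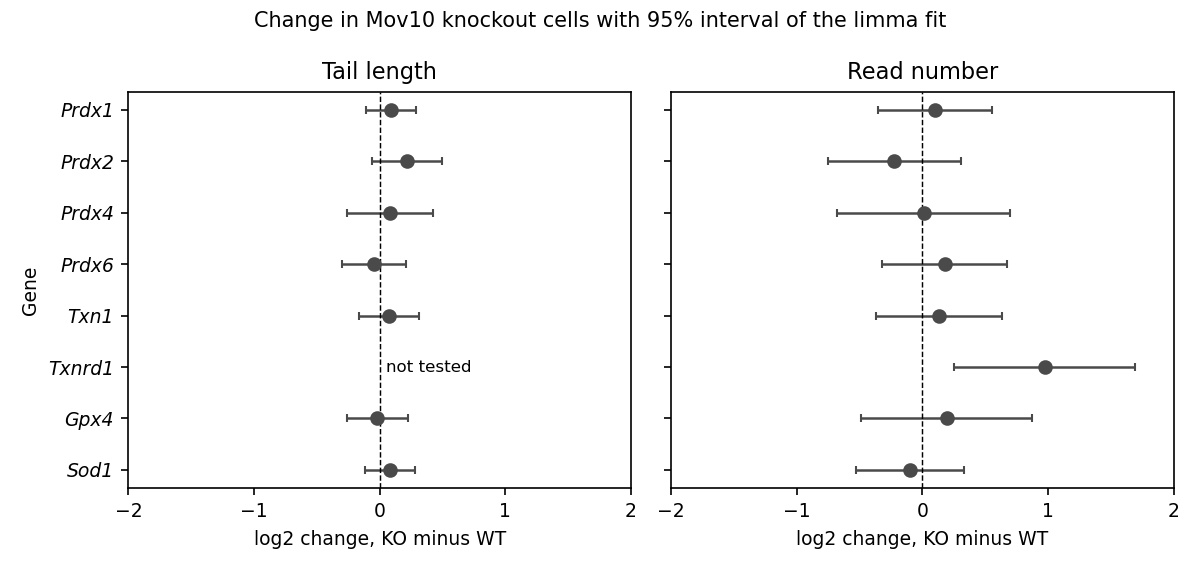
Log2 change from WT to KO in tail length (left) and read number (right) for each gene, with the 95% interval of the limma fit over all genes. Txnrd1 in read number, at 0.97, is the 1 value whose interval excludes 0 before adjustment; its tail length was not tested.

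Gpx4 (ENSMUSG00000075706.10) differed more between the WT replicates than between the genotypes. It had 931 RPM (WT 1), 399 (WT 2), 733 (KO 1) and 781 (KO 2). The WT libraries thus lay on both sides of the KO libraries, and each of them decided the direction: the log2 change was 0.90 without WT 1 (limma, adjusted p = 0.0337) and -0.50 without WT 2 (adjusted p = 0.165), where all alternatives run gave adjusted p-values from 0.0337 to 0.9997. Gpx4 was also the member whose reads cannot be attributed with certainty. On 4 transcripts the deposited table gave some reads the symbol Gpx4 and others Gpx4-ps2, a pseudogene, in total 943 of 2325 reads. The pseudogene's share was 35.1% (95% Wilson interval 31.5 to 38.9%) for WT 1, 52.2% (46.5 to 57.9%) for WT 2, 39.5% (36.3 to 42.9%) for KO 1 and 42.1% (38.1 to 46.2%) for KO 2. WT 2 stood apart, with the lowest Gpx4 level and the highest pseudogene share.

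With both symbols joined, the transcripts had 1433 RPM (WT 1), 834 (WT 2), 1210 (KO 1) and 1337 (KO 2). WT 2 was still the lowest library after joining, though nearer to WT 1 as a ratio than with the symbol Gpx4 alone. The log2 change of the joined reads was 0.10 with a standard error of 0.27 (limma, adjusted p = 0.924). The split between the symbols also depended on the transcript. On ENSMUST00000105372.7, the main transcript, from 27.7% (KO 1) to 34.5% (KO 2) of reads had the pseudogene's symbol, while on ENSMUST00000217344.1 it was from 58.8% (WT 1) to 74.8% (WT 2). For the other 7 members, at most 3 reads on a gene's main transcripts carried another symbol.

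**Figure D3:**
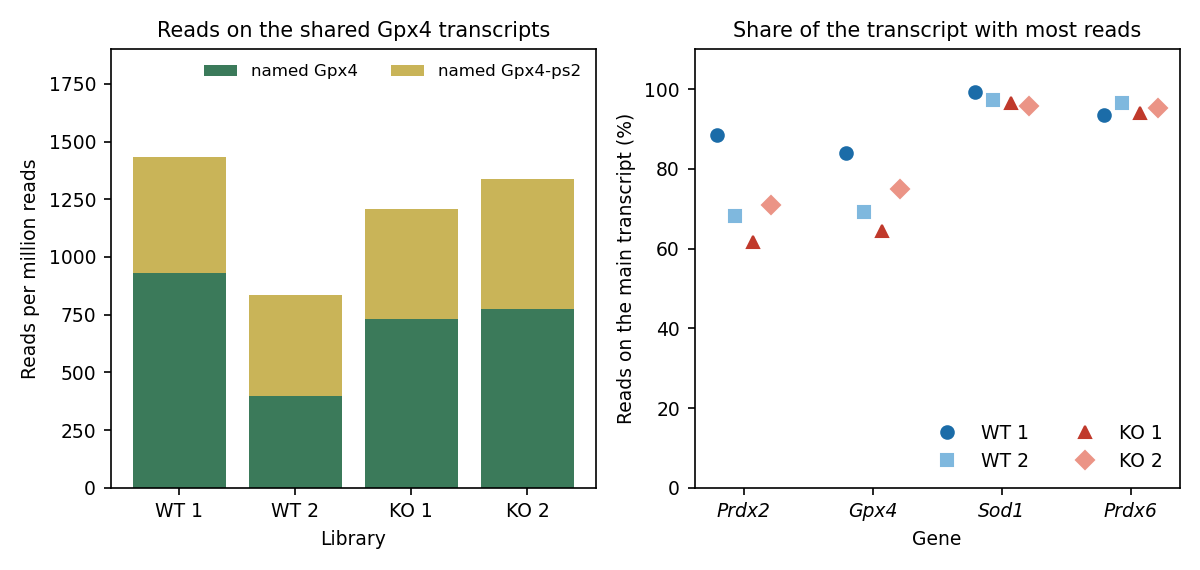
Left, level in RPM on the 4 transcripts that carry both symbols, split into reads named Gpx4 and reads named Gpx4-ps2 (stacked bars), by library. Right, share of a gene's reads on its transcript with most reads; in WT 1 the share is 88.4% for Prdx2 and 83.9% for Gpx4, above the other libraries.

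Transcript use was uneven among the members. All 1399 reads of Txn1 and 4412 of 4414 reads of Prdx1 lay on 1 transcript each. For Prdx2, ENSMUST00000005292.14 held 88.4% of reads (WT 1), 68.1% (WT 2), 61.5% (KO 1) and 71.0% (KO 2). WT 1 was the high library here. The same library was high for the main transcript of Gpx4, with 83.9% of reads, against 69.3% (WT 2), 64.5% (KO 1) and 252 of 336 reads (KO 2). In Sod1 the second transcript, ENSMUST00000232505.1, took 0.733% of reads (WT 1), 2.77% (WT 2), 3.41% (KO 1) and 4.23% (KO 2), so that WT 1 was again the library with the least spread over transcripts. Prdx6 did not follow this order: its main transcript held 93.4% (WT 1) and 96.4% (WT 2). The reads of Txnrd1 were divided between ENSMUST00000219368.1 (91 reads) and ENSMUST00000020484.7 (86 reads). The first of these had 5 reads (WT 1) and 14 (WT 2) against 43 (KO 1) and 29 (KO 2), and the second 11, 14, 32 and 29 in the same order of libraries. Whether these shares differ between genotypes was not tested.

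Median tails ranged from 81.6 to 137 nt across the members. Averaged over the 4 library medians, Txnrd1 had the longest tails, at 137 nt, followed by Txn1 (126 nt), Prdx1 (119 nt), Prdx2 (114 nt), Prdx6 (104 nt), Gpx4 (103 nt), Sod1 (101 nt) and Prdx4 (81.6 nt). Txn1 was longer than Prdx1 in every library, by 1.32 to 12.6 nt, and Sod1 was longer than Prdx4 in every library, by 7.75 to 31.1 nt, but no 2 neighbours in this order had separate ranges. Prdx6 exceeded Gpx4 in 2 of 4 libraries and Gpx4 exceeded Sod1 in 2, so these 3 genes cannot be ordered. The ratio of the longest to the shortest member was 2.07 (WT 1), 1.66 (WT 2), 1.29 (KO 1) and 2.00 (KO 2). The shortest was Prdx4 in all libraries except KO 1, where Prdx6 was.

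**Figure D4:**
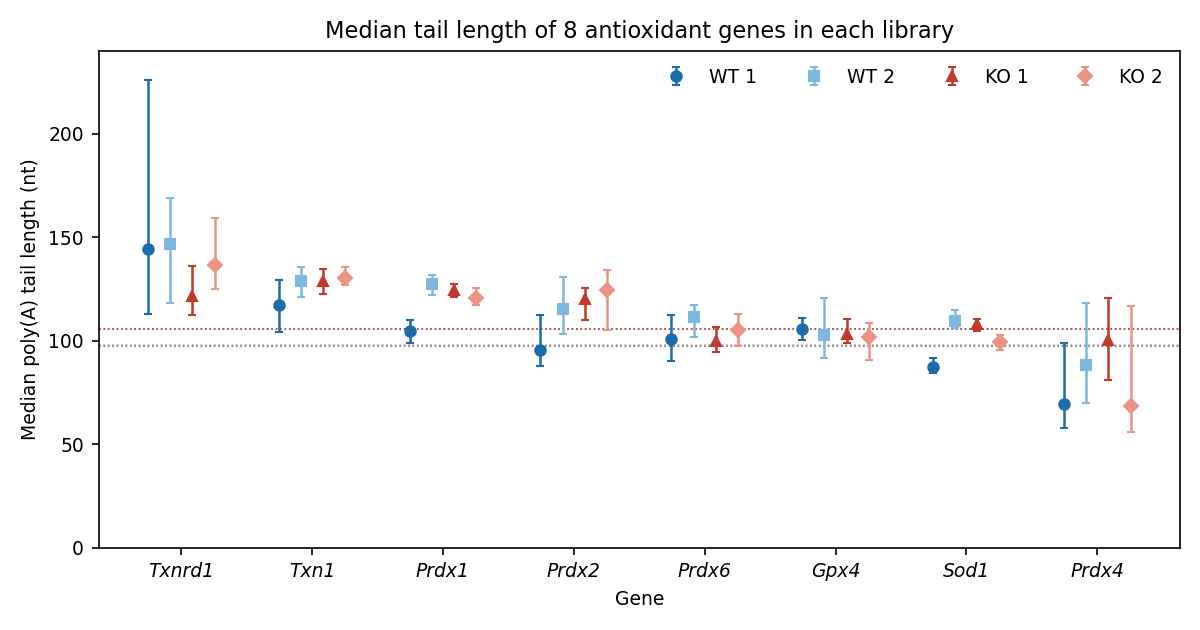
Median poly(A) tail length in nt of each gene in the 4 libraries (points), with exact 95% order-statistic intervals over reads (bars); dotted lines mark the median over all reads of each library. Prdx1 and Sod1 are shortest in WT 1, with medians of 104 and 87.2 nt.

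The median tail of Prdx1 was 104 nt (95% order-statistic interval 98.9 to 110.2 nt) for WT 1, 128 nt (122 to 132 nt) for WT 2, 124 nt (121 to 127 nt) for KO 1 and 121 nt (117 to 125 nt) for KO 2. WT 1 was short and the other 3 libraries lay close together, so that WT 2 was with the KO libraries and the groups overlapped. Among the 1935 genes with enough reads for the test, 56.1% had shorter tails than Prdx1 (WT 1), but 84.2% (WT 2), 78.3% (KO 1) and 87.9% (KO 2). Its place among the genes of a library was thus lower in WT 1 than in the other libraries, though still above the middle.

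Sod1 had a median tail of 87.2 nt (84.4 to 91.5 nt) for WT 1, 109.7 nt (106 to 115 nt) for WT 2, 108 nt (105 to 111 nt) for KO 1 and 99.4 nt (95.5 to 103 nt) for KO 2. WT 1 was again the shortest, and KO 2 lay between it and the other libraries. Over all reads WT 1 and KO 2 had nearly the same median, 97.3 and 98.1 nt, so the gap between these libraries in Sod1 was larger than between the library medians. In WT 1 only 15.8% of tested genes had shorter tails than Sod1, against 42.7% to 50.7% in the other libraries.

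For Txn1 the medians were 117 nt (WT 1), 129 nt (WT 2), 129 nt (KO 1) and 130.2 nt (KO 2), and 80.2% to 94.4% of tested genes had shorter tails. It was a long-tailed gene in each library. The shift in WT 1 lay in the shorter reads: the 25th percentile of Txn1 was 80.8 nt (WT 1) and 94.6 to 98.9 nt in the others, while the 75th percentile was between 159 and 162 nt in all 4. In Prdx1 the 25th percentile was 69.7 nt (WT 1) and 89.3 to 93.9 nt elsewhere, and the 75th was 145 nt (WT 1) and 155 to 158 nt elsewhere. Sod1 was lower in WT 1 at both ends, with 62.7 against 70.8 to 77.7 nt at the 25th percentile and 119 against 135 to 146 nt at the 75th. Over all reads the 25th percentile was 65.0 nt (WT 1), 68.2 nt (WT 2), 70.3 nt (KO 1) and 64.8 nt (KO 2), so WT 1 and KO 2 were alike there.

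**Figure D5:**
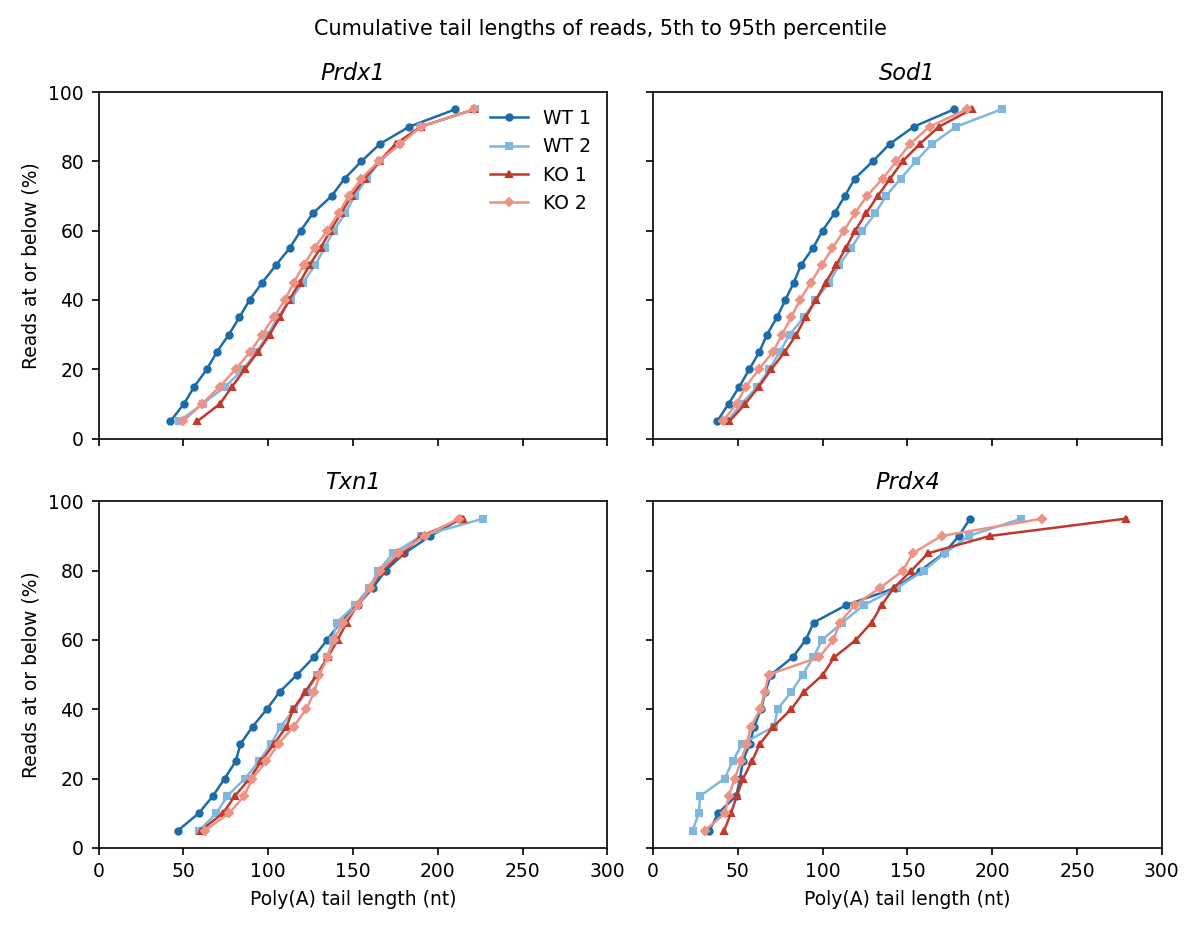
Cumulative tail lengths of the reads of 4 genes from the 5th to the 95th percentile (x axis, nt; y axis, percent of reads at or below), one line per library. For Prdx1 and Txn1 the WT 1 line lies to the left of the others over the shorter reads, and the Txn1 lines meet near 160 nt.

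Prdx2 had medians of 95.6 nt (WT 1), 115 nt (WT 2), 119.9 nt (KO 1) and 125 nt (KO 2). Both KO libraries were above both WT libraries, and WT 1 was the shortest. Prdx6 had 101, 112, 99.96 and 105 nt in the same order of libraries, and Gpx4 had 106, 103, 103 and 102 nt, a spread of under 4 nt. Unlike Prdx1 and Sod1, these 2 genes were not short in WT 1. Reads named Gpx4-ps2 on the same transcripts had medians of 105 nt (WT 1), 92.7 nt (WT 2), 102 nt (KO 1) and 89.3 nt (KO 2), which pooled over the 4 transcripts were shorter than those named Gpx4 in all 4 libraries, by under 1 nt (WT 1). This order mixes transcripts with different pseudogene shares. On the main transcript, ENSMUST00000105372.7, the reads named Gpx4-ps2 were the longer ones in 3 of 4 libraries, with 111 against 104 nt (WT 1), 114 against 101 nt (WT 2) and 115 against 109.7 nt (KO 1), and the shorter ones in KO 2, with 90.1 against 95.3 nt.

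Prdx4 had the shortest and among the most dispersed tails. Its medians were 69.6 nt (57.9 to 98.7 nt) for WT 1, 88.2 nt (69.7 to 118 nt) for WT 2, 100.3 nt (80.9 to 121 nt) for KO 1 and 68.3 nt (55.8 to 117 nt) for KO 2, on 38, 46, 99 and 38 reads. All 4 intervals overlapped, so the libraries could not be told apart at this depth. Its quartiles were 82.1 to 96.7 nt apart, against 56.2 to 71.4 nt for Sod1. In WT 1 and KO 2 only 1.71% and 1.39% of tested genes had shorter median tails. Txnrd1 was at the other end, with medians of 144 nt (WT 1), 147 nt (WT 2), 122 nt (KO 1) and 137 nt (KO 2). Both KO medians were below both WT medians, but the 95% intervals of the WT libraries, 113 to 226 nt on 19 reads and 118 to 169 nt on 30 reads, covered both KO medians. Of all genes tested for tail length, 11.8% had shorter medians in KO without overlap. On ENSMUST00000219368.1 the medians were 208 nt (WT 1, 5 reads), 185 nt (WT 2, 14 reads), 133 nt (KO 1) and 131 nt (KO 2). Medians of so few WT reads are uncertain, and tails of single transcripts were not tested. On ENSMUST00000020484.7 the groups overlapped, with 144 nt (WT 1), 109 nt (WT 2), 119 nt (KO 1) and 138 nt (KO 2). Between 74.5% and 97.0% of tested genes had shorter tails than Txnrd1.

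Very short tails, under 30 nt, were rare in these genes and also among all reads. For Prdx1 their share was 1.83% (95% Wilson interval 1.10 to 3.05%) for WT 1, 0.447% (0.174 to 1.14%) for WT 2, 0.224% (KO 1) and 0.414% (KO 2). The interval of WT 1 overlapped only that of WT 2. Txn1 had 0 such reads of 574 (KO 1), which allows a share of up to 0.523%, and 0 of 308 (KO 2), which allows up to 0.974%. Prdx4 had 8 short reads of 46 (WT 2), 17.4% (9.09 to 30.7%), against 2.02% to 5.26% in the other libraries. Over the 8 genes, each counted equally, short reads averaged 1.57% (WT 1), 3.31% (WT 2), 0.751% (KO 1) and 1.75% (KO 2). The WT mean of 2.44% ± 1.22 (SD, n = 2) and the KO mean of 1.25% ± 0.704 (SD, n = 2) differed by less than the SD of the WT libraries. Among all reads, short ones made up 2.352% (WT 1), 3.02% (WT 2), 1.55% (KO 1) and 2.755% (KO 2). There too the share was highest in WT 2 and lowest in KO 1.

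Long tails, of 150 nt or more, were most frequent in Txnrd1, with 36.6% to 46.7% of reads, and in Txn1, with 31.1% to 32.1%. The share in Txn1 varied little between libraries, although the median was lower in WT 1. In Sod1 it was 11.2% (9.45 to 13.2%) for WT 1, 22.3% (19.6 to 25.2%) for WT 2, 18.5% (16.7 to 20.4%) for KO 1 and 16.1% (14.0 to 18.5%) for KO 2. WT 1 and WT 2 were the lowest and the highest library, with the KO libraries between them. The same held among all reads of each library, with 18.8% (WT 1), 23.97% (WT 2), 23.7% (KO 1) and 19.6% (KO 2). Over the 8 genes the mean share was 24.8% ± 3.19 (SD, n = 2) for WT and 25.8% ± 0.0328 (SD, n = 2) for KO, a difference within the SD of the WT libraries.

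No member passed the test of tail length. The log2 median tail length was tested with limma in 1935 genes with at least 20 reads in each library, with Benjamini-Hochberg adjustment over all of them. That left out Txnrd1, which had 19 reads (WT 1), so 7 of the 8 members were tested. Calls numbered 0 of 7 members and 0.0% of all genes tested, and 45 genes, 2.33%, had an unadjusted p under 0.05, none of them a member. Replacing the median with the mean of log2 lengths also made 0 calls, and leaving out WT 2 made 4. Prdx2 had the largest log2 change of the members tested, 0.22 with a standard error of 0.14 (95% interval -0.06 to 0.50; limma, unadjusted p = 0.121, adjusted p = 0.9998). It was the 1 tested member whose libraries did not overlap, longer in KO as were 14.7% of all genes tested; 11.8% were shorter in KO without overlap. With each library left out in turn the change of Prdx2 ran from 0.08 without WT 1 to 0.35 without WT 2, and the adjusted p was 0.276 or more under all alternatives run.

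The remaining log2 changes in tail length were 0.09 for Prdx1 (95% interval -0.11 to 0.29), 0.08 for Sod1 (-0.11 to 0.28), 0.08 for Txn1 (-0.17 to 0.32) and 0.08 for Prdx4 (-0.26 to 0.42). Prdx6 had -0.05 (-0.30 to 0.21) and Gpx4 -0.02 (-0.26 to 0.22). With at least 10 reads as the minimum, Txnrd1 had -0.17. The median over the 7 members was 0.08, against 0.01 over all genes tested. It was -0.06 without WT 1 and 0.23 without WT 2, so the WT libraries decided its sign.

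The genes closest in tail profile were found by the Euclidean distance of the log2 median tails over the 4 libraries. The median profile of the 8 members was 103 nt (WT 1), 113 nt (WT 2), 114 nt (KO 1) and 113 nt (KO 2). Each value was above the median over all reads of its library, by 5.28 to 14.6 nt. That median is taken over reads and not over genes, so the excess does not place the members among genes. In WT 1, 46.25% of tested genes had shorter tails than Prdx6 (101 nt) and 56.1% had shorter tails than Prdx1 (104 nt). Adipor1, Nudt5 and Ndufs5 were nearest to the members' median profile, at distances of 0.03, 0.04 and 0.04. Nearest to Prdx1 was Mif, with 104, 131, 125 and 121 nt in the order WT 1, WT 2, KO 1, KO 2. Cfl1 was nearest to Sod1, with 89.4, 107, 108 and 99.4 nt. For the other members tested for tail length the nearest genes were Gm21981 (Prdx2), Zfp428 (Prdx4), Kpnb1 (Prdx6), St13 (Txn1) and Nutf2-ps1 (Gpx4). No nearest gene was sought for Txnrd1, which was not tested for tail length.

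The deposited table assigned Txnrd1 to the class of Mov10 targets with m6A, a methylated adenosine in messenger RNA, and Prdx2, Prdx4, Txn1 and Sod1 to the Mov10 targets without m6A. Gpx4 was among the non-targets, and Prdx1 and Prdx6 were in no class. How the classes were defined is not given in the sources used here. The 4 targets without m6A had log2 changes in read number from -0.22 to 0.13 and in tail length from 0.08 to 0.22, and the non-target Gpx4 had 0.19 and -0.02. With 1 gene each in the other classes, no comparison of classes was made.

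The wider thiol and redox network was examined through a list of 89 other genes, of which 85 had reads. In read number 57 of them were tested and in tail length 27, and 0 passed in either direction in both (limma). An unadjusted p under 0.05 was found for 7 genes in read number and 1 in tail length, where it was found for 10.3% and 2.33% of all genes tested. Their median log2 change was 0.06 in read number and -0.01 in tail length. In read number 32 lay above 0 and 25 below, and of all genes tested 49.4% lay above 0, against which the counts above 0 that follow can be read.

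Among the other peroxiredoxin and thioredoxin genes (13 tested for read number, 5 above 0 and 8 below), the 2 with most reads were Glrx3, a glutaredoxin, with a log2 change of 0.07 (standard error 0.25), and Txndc17, a thioredoxin-like protein, with -0.19 (0.28). In the glutathione system (12 tested, 8 above 0), Gpx1, the abundant cytosolic glutathione peroxidase, had 478 RPM (WT 1), 1199 (WT 2), 1093 (KO 1) and 1207 (KO 2). WT 1 was low, as for Prdx1 and Txn1 and unlike Gpx4. Gsta4, a glutathione transferase, was level per total reads, with 797 to 903 RPM. Sod2, the mitochondrial superoxide dismutase, had 364, 285, 206 and 223 RPM in the order WT 1, WT 2, KO 1, KO 2, a log2 change of -0.70 (limma, unadjusted p = 0.0176, adjusted p = 0.376). Ccs, the copper chaperone that loads Sod1, had a log2 change of -0.99 (adjusted p = 0.426), where Sod1 had -0.10.

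The list that joined the Nrf2 axis with the supply of NADPH, the electron source of Txnrd1, had a median log2 change of -0.05 (12 tested, 5 above 0). Tkt and Taldo1, enzymes of the pentose phosphate pathway and the 2 genes of this list with most reads, had 0.12 and -0.44. These values do not stand for NADPH supply, for which no separate value is given. Of the genes for oxidative folding in the endoplasmic reticulum, where Prdx4 acts, 5 of 6 tested lay above 0. P4hb, a protein disulfide isomerase, had 112, 165, 261 and 326 RPM, a log2 change of 0.98 (limma, unadjusted p = 0.00269, adjusted p = 0.189), and Pdia3, a related isomerase, had 0.25. Prdx4 itself had 0.01. Among selenoproteins and the genes for their synthesis, 8 of 11 tested lay above 0, with a median of 0.37. Selenoh had 243 RPM (WT 1), 703 (WT 2), 751 (KO 1) and 607 (KO 2), and Selenof 173, 151, 240 and 172 RPM. Selenoh was lowest in WT 1 and Selenof in WT 2.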

How the data were processed

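Poly(A)-selected RNA of 4 libraries was sequenced with the SQK-RNA002 direct RNA kit on R9 flow cells, per the labels' protocols, and minimap2 2.20 is named in the submitters' processing notes. The genome build, annotation, basecaller, tail length tool and read filters are not given in the sources used here. Per the file headers, the deposited table gives for each read a transcript, a symbol, the library and an estimated tail length in nt; no normalization is recorded. Oligo(dT) selection can lose molecules with very short tails. Reads with a length above 0 were used (1903919; 3 were left out), and libraries were assigned by title.

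Reads were collapsed to the number of reads and the median length per symbol and library. Lengths were tested with limma 3.58.1 in R 4.3.3 (log2 median, trend on log2 mean reads, at least 20 reads in each library). Read numbers, counted here, were tested with limma's voom (0.5 added, median-of-ratios scaling, mean of at least 10). Printed RPM are per total reads. Both tests were also run on simulated data, and nothing reported here rests on that. Python 3.11.15, pandas 2.3.3 and scipy 1.17.1 were used otherwise. Replicates differed beyond counting noise (chi-square divided by its degrees of freedom, 5.37 for WT and 2.16 for KO), so each library counted as 1 replicate. The members and lists were chosen with earlier results of these data known. The genes named are the 8 members, the 2 genes of each list with most reads, any gene past the threshold, Mov10, and the nearest genes by tail profile. Joining Gpx4-ps2 with Gpx4 was chosen after seeing the data.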

Additional observations from a re-analysis of the deposited data

How the results depend on the processing

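Of the alternatives run, none brought a member's tail length past the threshold, and 2 did so for read number: leaving out WT 2 for Txnrd1 (1.35) and leaving out WT 1 for Gpx4 (0.90). Calls over all genes in read number were 7 with scaling by total reads, 1 with upper quartile scaling, 96 with no filter and 0 to 367 with a library left out (50 without WT 1, 367 without WT 2). In tail length they were 1 with the 75th percentile, 1 with at least 10 reads and 0 to 4 with a library left out. In these fits the lone library of a genotype is assumed to vary like the others. Whether the replicate numbers pair the libraries is not given in the sources used here. Deviations of same-numbered libraries were nearly uncorrelated over genes (0.0135 for tail length and 0.0155 for read number). With the replicate block there were 66 calls in read number and 0 in tail length, none of them a member. The median member change ran from -0.0582 to 0.23 in tail length and from -0.0145 (without KO 1) to 0.20 in read number with a library left out, and was 0.25 in read number with scaling by total reads. With a library left out, tail length changes ran from -0.0582 to 0.23 for Prdx1, -0.20 to 0.36 for Prdx4, -0.12 to 0.0244 for Prdx6, -0.0388 to 0.00119 for Gpx4 and -0.0817 to 0.25 for Sod1. Read number changes ran from -0.0762 to 0.29 for Prdx1, -0.39 to 0.35 for Prdx4, -0.0120 to 0.29 for Txn1, -0.50 to 0.90 for Gpx4 and -0.22 to 0.0364 for Sod1. Signs also turned for tail length with the 75th percentile in Prdx4 (-0.0559), Txn1 (-0.00190) and Gpx4 (0.00217), and in Prdx6 with the 25th percentile (0.0569) and the mean of log2 lengths (0.0128). In read number they turned for Prdx4 with limma's trend (-0.0236) and Sod1 with scaling by total reads (0.0168). The KO minus WT difference in short reads was -0.113 percentage points at a limit of 20 nt and -0.603 at 50 nt (-1.19 at 30 nt; -2.06 to -0.326 with a library left out), and in long reads 4.40 at 100 nt but -1.26 at 200 nt (0.920 at 150 nt; -1.33 to 3.17). The summed share of total reads differed by 0.0387 to 0.0960 percentage points with a library left out. The cause of these changes was not tested. Depth limits Prdx4 and Txnrd1 most, with as few as 38 and 19 reads in a library.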
